A study of Mus musculus with 8 samples.

Results

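Nrf2 binding at 10 genes of the thioredoxin system was examined in muscle satellite cells: the thioredoxins Txn1 and Txn2, the thioredoxin reductases Txnrd1, Txnrd2 and Txnrd3, the sulfiredoxin Srxn1 and the peroxiredoxins Prdx1, Prdx2, Prdx3 and Prdx6. The genes were chosen by name, with earlier results of these data known, so their counts beside those of all genes are not independent support. A peak was placed at a gene when its summit lay in the gene span or within 50 kb of either end. Satellite cells are resident stem cells of skeletal muscle, and here they were taken straight from hindlimb muscle of C57BL/6J mice for chromatin immunoprecipitation with sequencing (ChIP-seq) of Nrf2. For Keap1-null cells there are 2 ChIP and 2 input libraries, and for Nrf2-null cells the same, 8 in all. All 8 came from a mutant genotype, with no wild-type group. The labels do not give the age of the mice, how each deletion was made or how many mice were pooled, and a bench number alone tells the libraries of a group apart, so differences between libraries may be technical. The peak lists carry no expression values, so neither the cell identity nor the deletions were checked here.

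The thioredoxin system is a relay of electrons against oxidants. A thioredoxin reductase uses NADPH to reduce thioredoxin, thioredoxin reduces target proteins and peroxiredoxins, and peroxiredoxins remove hydrogen peroxide; sulfiredoxin rescues peroxiredoxins whose active cysteine has been over-oxidized. Nrf2 is the transcription factor that switches on many antioxidant genes, through antioxidant response elements in their DNA, and Keap1 marks Nrf2 for degradation. Absence of Keap1 is known to stabilize Nrf2, while cells without Nrf2 show what the antibody enriches when its target is missing.

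Of the 10 genes, 5 had a peak in the Keap1-null list, and 0 had one in the Nrf2-null list. The 5 were Txn1, Txn2, Txnrd1, Srxn1 and Prdx1, and the 5 without were Txnrd2, Txnrd3, Prdx2, Prdx3 and Prdx6. Over all 21631 protein-coding genes, the same window held a Keap1-null-only summit in 3.31% and an Nrf2-null summit in 0.693%. Txnrd1 and Prdx1 had 2 peaks each, as did 0.291% of protein-coding genes at 2 or more. The 5 genes held 7 of the 469 Keap1-null peaks and 0 of the 151 Nrf2-null peaks. Each of the 7 lacked an overlapping peak in the Nrf2-null list (called Keap1-null-only), as did 77.4% of all Keap1-null peaks. Lacking a counterpart was thus common in the list and does not set the 7 apart. Each list joins both ChIP libraries of a genotype, so no test across replicates could be made, and all results here are descriptions.

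**Figure D1:**
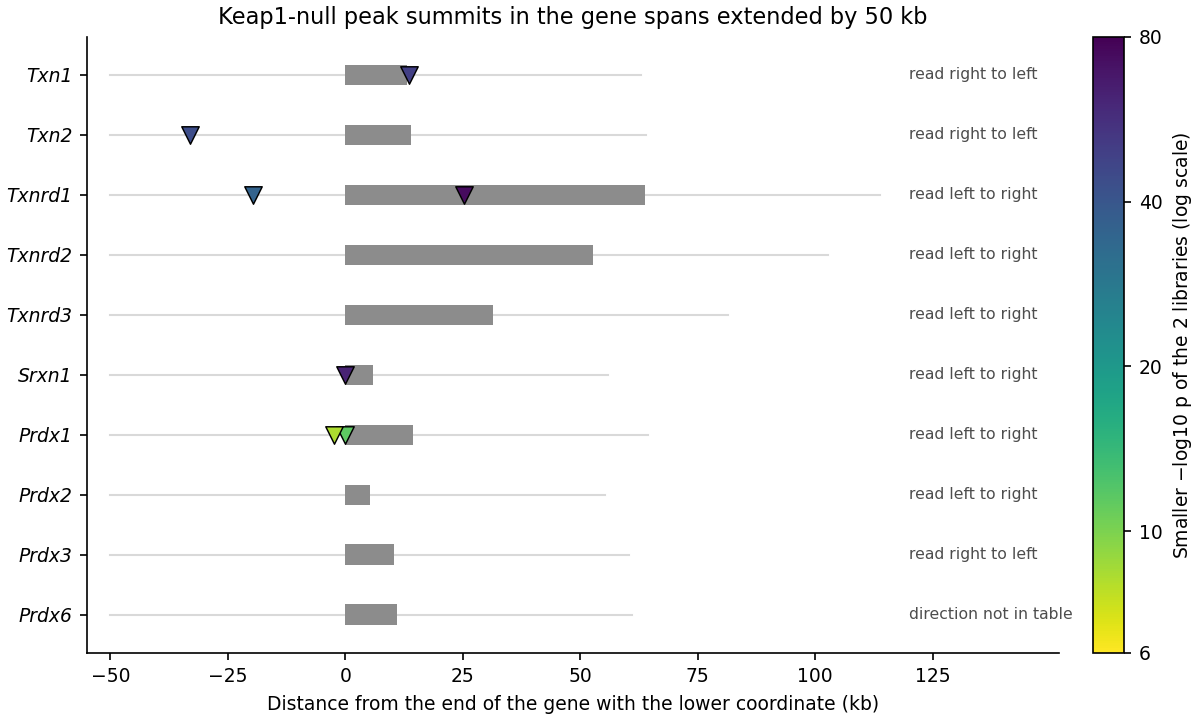
Position of Keap1-null peak summits (triangles) in kb from the lower-coordinate end of each gene, with gene spans as grey bars, the searched 50 kb on each side as thin lines and the smaller −log10 p of both libraries as colour on a log scale. Txn1, Srxn1 and Prdx1 have a summit next to a gene end, Txnrd1 has 1 inside the gene and 1 outside, the Txn2 site is 33.1 kb away, and 5 genes have no triangle.

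By position, 3 of the 7 summits lay within 1000 bp of an end of their gene (Txn1, Srxn1 and Prdx1), 1 lay deep inside a gene (Txnrd1) and 3 lay outside and farther away (Txnrd1, Txn2 and Prdx1). Among all 363 Keap1-null-only peaks, 11.3% were within 1000 bp of a protein-coding gene end. Measured to annotated start sites instead, 4 of the 7 were within 1000 bp of a RefSeq start of their gene, against 10.5% of Keap1-null-only peaks near any protein-coding start. The fourth was the internal Txnrd1 peak, which sat at a second RefSeq start of that gene. Counted by gene, 4 of the 9 genes in the RefSeq promoter table had such a site, against 0.232% of the protein-coding genes in that table. Prdx6 has no entry in it.

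The DNA just before 3 of these starts is shown because the peak summits of both libraries lay in it. Each run is the 250 bases ahead of the RefSeq start (build GRCm38.p6, the same coordinates as mm10, 5′ to 3′ in the direction of the gene, all on the + strand). Capitals mark matches on either strand to TGANNNNGC, a loosened form of the antioxidant response element core TGACNNNGC. The regions are chr2:152105274-152105523 for Srxn1, chr10:82858956-82859205 for the second start of Txnrd1 and chr4:116685349-116685598 for Prdx1.
Srxn1: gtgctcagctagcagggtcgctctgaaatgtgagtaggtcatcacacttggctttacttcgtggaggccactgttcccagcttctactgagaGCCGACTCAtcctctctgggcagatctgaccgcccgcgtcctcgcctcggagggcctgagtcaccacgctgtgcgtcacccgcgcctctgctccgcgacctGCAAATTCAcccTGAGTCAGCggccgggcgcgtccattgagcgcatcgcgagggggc
Txnrd1: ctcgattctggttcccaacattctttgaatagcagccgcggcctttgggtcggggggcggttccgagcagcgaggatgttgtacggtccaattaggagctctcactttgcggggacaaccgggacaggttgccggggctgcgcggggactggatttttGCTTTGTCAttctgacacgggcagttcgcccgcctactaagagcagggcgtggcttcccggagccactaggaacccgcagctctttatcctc
Prdx1: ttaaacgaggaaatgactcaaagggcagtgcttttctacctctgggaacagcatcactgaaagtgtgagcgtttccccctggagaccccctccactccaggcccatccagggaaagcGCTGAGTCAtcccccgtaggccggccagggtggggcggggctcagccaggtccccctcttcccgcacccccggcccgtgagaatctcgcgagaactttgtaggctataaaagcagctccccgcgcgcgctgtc

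In Prdx1 the capitals hold TGACTCAGC read on the reverse strand, a form in which the core overlaps the AP-1 element TGANTCA. It spans 133 to 125 bp before the start, and the summit of the joined peak was 122 bp before it. In Txnrd1 the capitals hold TGACAAAGC on the reverse strand, 92 to 84 bp before the second start, with the summit 79 bp before it. From the centre of the match to the summit of the joined peak was 7 bp in Prdx1 and 9 bp in Txnrd1. The single-library summits in Prdx1 lay 138 and 105 bp before the start, on either side of the match and 33 bp apart. In Txnrd1 they lay 82 and 76 bp before the second start. Srxn1 differed. Its summit was 126 bp before the start, and its strict core match, TGACCTAGC, lay 28 to 36 bp after the start, which put its centre 158 bp from the summit. The looser matches in Srxn1 are TGAGTCGGC at 158 to 150 bp, TGAATTTGC at 57 to 49 bp and TGAGTCAGC at 45 to 37 bp before the start, the first of them centred 28 bp from the summit and the last overlapping a TGANTCA. A further TGANTCA lies 102 to 96 bp before the start in Srxn1, and another 237 to 231 bp before it in Prdx1.

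The core was counted in the same way in every RefSeq window, from 250 bp before to 50 bp after a start. The 9 genes have 11 such windows, because Txnrd1 has 3 starts. The 3 windows with a summit all held TGACNNNGC, and 0 of the 8 windows without a summit did. The 8 include the window of Txn1, whose summit lay 482 bp before the start and so outside the bases searched. The sequence under that peak and under the distal Txn2, Txnrd1 and Prdx1 peaks was not available, so a core there was not looked for. The core stood in 12.4% of all 32851 windows and in 14 of the 21 windows that hold a Keap1-null-only summit (66.7%); some of these 21 overlap, and together they hold 17 distinct summits. The looser TGANNNNGC stood in 41.3% of all windows and in 3 of the 8 member windows without a summit, those of Txn2, Txnrd3 and the third start of Txnrd1. TGACTCAGC, the Prdx1 form, stood in 0.454% of all windows, and TGANTCA in 7.81%. TGANTCAGC, added after seeing the data, covers both the Prdx1 match and TGAGTCAGC of Srxn1, and it stood in 1.19%. A match is a string of letters and does not show that the factor used it.

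**Figure D2:**
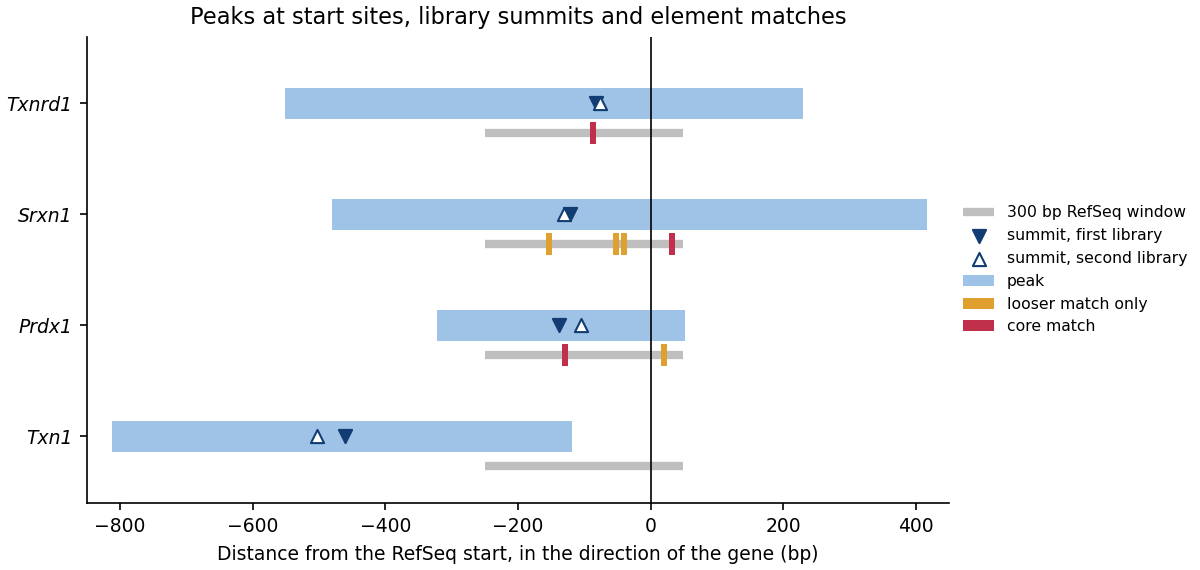
Peaks (blue bars) at RefSeq starts of 4 genes, in bp from the start in the direction of the gene, with the summit of the first library (filled triangles), that of the second (open triangles), the 300 bp RefSeq window (grey) and matches to the strict core (red) or to the looser form alone (yellow). In Txnrd1 and Prdx1 a strict match lies beside both summits, in Srxn1 it lies after the start, and the Txn1 summits lie ahead of the window.

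Among the thioredoxins, Txn1 and Txn2 were both near a strong site, at very different distances. Strength is given as the deposited −log10 p of enrichment, in which higher means stronger. Txn1 encodes the thioredoxin of cytosol and nucleus (chr4:57943373-57956411). Its peak (chr4:57956530-57957223, 694 bp wide) had a −log10 p of 54.8 in the first library and 49.3 in the second. The summit lay 482 bp before the start of Txn1, and the peak ran from 812 to 119 bp before it without covering it. The summit also lay inside Gm35344, a long non-coding RNA gene on the other strand, 450 bp after its start. The summits in the libraries were 461 and 503 bp before the Txn1 start, 42 bp apart.

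Txn2 encodes the mitochondrial thioredoxin (chr15:77915051-77928994). The only peak in its window (chr15:77881717-77882315, 599 bp wide) lay 33.1 kb past the far end of the gene, 47028 bp from its start. Its values were 53.5 in the first library and 43.7 in the second, close to those of the Txn1 site in both. No other protein-coding gene was nearer; the next was Myh9, a non-muscle myosin heavy chain gene, at 39.8 kb. Nearness does not show which gene a distal site acts on.

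Among the reductases, Txnrd1 alone had peaks. Txnrd1 encodes the cytosolic enzyme (chr10:82833951-82897724). The peak inside it (chr10:82858655-82859435, 781 bp wide) had 131 in the first library and 74.3 in the second, the highest smaller value of the 7. It was 25.2 kb from the first RefSeq start and 79 bp before the second, and it covered the second start, running from 551 bp before to 229 bp after it. The third start was 1214 bp beyond the summit. Gm38560, a long non-coding RNA gene read in the opposite direction, starts 119 bp from the same summit, so the site lies between a pair of divergent starts. The gene table gives no exons, so an exon or intron was not assigned.

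A further Txnrd1 site lay 19.7 kb before the first start (chr10:82813987-82814579, 593 bp wide), with 88.0 in the first library and 35.3 in the second. Its summits in the libraries were 46 bp apart, against 6 bp at the internal site. The summits of both sites were 44.8 kb apart. This site lies inside the long non-coding RNA gene 1700028I16Rik, and the protein-coding gene nearest to it was Hcfc2, at 18.4 kb. Txnrd2, the mitochondrial reductase (chr16:18426417-18479073), and Txnrd3, the thioredoxin-glutathione reductase of testis (chr6:89643988-89675529), had no peak in their windows. The nearest Keap1-null peak was 2784 kb from Txnrd2, a peak shared with the Nrf2-null list, and 1769 kb from Txnrd3.

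Srxn1, the sulfiredoxin gene (chr2:152105524-152111376), had 1 site, at its start. The peak (chr2:152105043-152105940) was the widest of the 7 at 898 bp, and 98.6% of the other Keap1-null-only peaks were narrower. Its values were 85.0 in the first library and 62.2 in the second. It ran from 481 bp before the start to 416 bp after it. The summits of the libraries fell 121 and 131 bp before the start, 10 bp apart, whereas the median gap over all Keap1-null-only peaks was 32 bp. The next protein-coding gene, Scrt2, was 9.6 kb from the summit.

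Prdx1 was the only one of the 4 peroxiredoxin genes with a peak, and both of its peaks were lower than the other 5 sites. Prdx1 encodes an abundant cytosolic peroxiredoxin (chr4:116685599-116700000). The peak at its start (chr4:116685277-116685650) was the narrowest of the 7 at 374 bp, with 18.9 in the first library and 11.4 in the second. It ran from 322 bp before to 51 bp after the start, and it also lay in AV051173, a long non-coding RNA gene on the other strand. The second peak, 2.41 kb before the start (chr4:116683001-116683494, 494 bp wide), had 18.1 in the first library and 8.28 in the second. Its summits in the libraries were 83 bp apart, the widest gap of the 7. Over all Keap1-null-only peaks the median was 16.9 in the first library and 11.7 in the second, so the start peak was near the middle of the list, and the upstream peak was below the lower quartile of 8.68 in the second library.

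Prdx2, a cytosolic peroxiredoxin (chr8:84969622-84974811), Prdx3, its mitochondrial relative (chr19:60864066-60874538), and Prdx6, a peroxiredoxin with a single active cysteine (chr1:161240112-161251210), had no peak within 50 kb. The nearest Keap1-null peaks were 765 kb from Prdx2 and 1542 kb from Prdx6. For Prdx3 the nearest was 65.7 kb away, just outside the window, at 11.1 in the first library and 15.3 in the second; unlike the 7 peaks inside the windows it was higher in the second library. The farthest summit inside a window was that of Txn2, at 33.1 kb. Of the 3 genes for mitochondrial proteins, Txn2, Txnrd2 and Prdx3, Txn2 alone had a site, the most distant of the 7.

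In strength, the sites formed a high set of 5 and a low set of 2, with no value between. The smaller −log10 p was 74.3 at the internal Txnrd1 start, 62.2 at Srxn1, 49.3 at Txn1, 43.7 at the distal Txn2 site and 35.3 at the distal Txnrd1 site, and then 11.4 and 8.28 at the Prdx1 sites. These ranked 3, 6, 8, 10, 19, 249 and 382 among the 469 Keap1-null peaks. The median over the 7 was 43.7, against 10.8 over the 356 other Keap1-null-only peaks, whose highest value was 83.4. The order internal Txnrd1, Srxn1, Txn1, Txn2 was the same in both libraries, although the libraries differed by 57.0 at Txnrd1 and by 22.8 at Srxn1, and the values of neighbours overlapped between libraries, apart from those of Srxn1 and Txn1. The distal Txnrd1 site had no stable place, standing above Srxn1 in the first library (88.0) and lowest of the 5 in the second (35.3). The Prdx1 sites were below all 5 in both libraries: the lowest single-library value of the 5 was 35.3 and the highest at Prdx1 was 18.9.

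The irreproducible discovery rate (IDR), the authors' measure of how well the libraries of a pair order a peak alike (lower is better), is computed from the ranks of these same values and so follows them. It was at the lowest value listed, 1e-05, for the Txnrd1 internal, Srxn1 and Txn1 peaks, 3 of the 8 Keap1-null peaks tied there. It was 1.87e-05 for the Txn2 site and 2.07e-05 for the distal Txnrd1 site, 0.00613 for the Prdx1 start and 0.0165 for the second Prdx1 site. The deposited list ends at 0.0499. All 7 peaks were higher in the first library, as were 81.5% of Keap1-null-only peaks. The list does not say which bench that library came from, and the part of library depth in this was not tested, since the files hold no read totals.

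**Figure D3:**
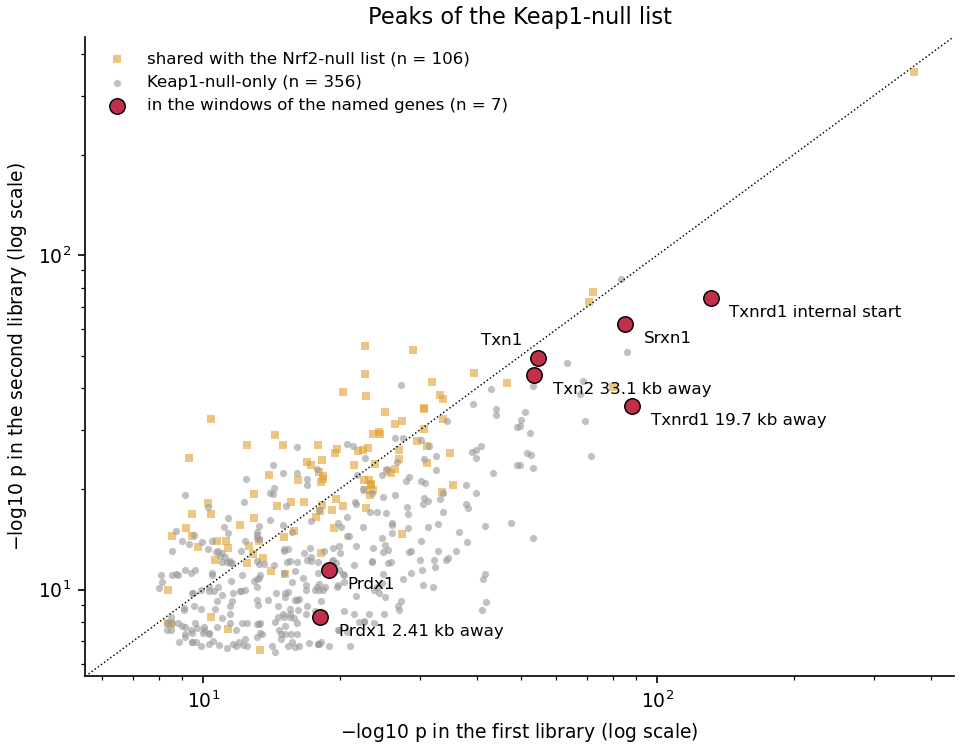
The −log10 p of each of the 469 Keap1-null peaks in the first library (x) and the second (y), both on log scales; grey circles are Keap1-null-only, yellow squares are shared with the Nrf2-null list, red circles are the 7 peaks in the windows of the thioredoxin-system genes, and the dotted line marks equal values. The red circles lie below the line, 5 toward the upper right and the 2 Prdx1 peaks among the bulk.

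The 5 strong peaks were 593 to 898 bp wide and the 2 Prdx1 peaks 374 and 494 bp, with a median of 428 bp over all Keap1-null-only peaks. All 7 were wider in the first library than in the second. For Srxn1 the widths were 898 and 615 bp, and for the Prdx1 start 374 and 289 bp. Over all Keap1-null-only peaks the median width was 392 bp in the first library and 323 bp in the second, so the whole list leaned the same way. Wider peaks and stronger peaks come from the same reads, so width is not separate evidence.

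Peaks with values most like those of the sites at gene ends were sought among the 41 Keap1-null-only peaks within 1000 bp of a protein-coding gene end, by the distance between log10 values of both libraries. The peak most like that of Srxn1 was the Txn1 peak, with 54.8 and 49.3 against 85.0 and 62.2 at Srxn1. That distance was 0.216, a poorer match than those of Txn1 (0.142) and the Prdx1 start (0.0459). The peak most like that of Txn1 was at Nqo1, which encodes a quinone reductase, with 67.5 in the first library and 38.3 in the second. The peak most like that at the Prdx1 start was at Numbl, with 18.0 and 10.4. This likeness is over 2 libraries only.

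Nrf2-null peaks were far from the 10 genes, as they were from most genes. The median distance from a gene span to the nearest Nrf2-null summit was 10.1 Mb over the 10 genes and 8.65 Mb over all protein-coding genes, so with 151 peaks in the list the distances do not set the 10 apart. The nearest Nrf2-null summit was 457 kb from Prdx3, 1.06 Mb from Txnrd1, 1.21 Mb from Prdx2, 2.78 Mb from Txnrd2 and 6.18 Mb from Txn2. It was 14.0 Mb from Txnrd3, 16.0 Mb from Srxn1, 16.2 Mb from Prdx1, 74.9 Mb from Txn1 and 86.5 Mb from Prdx6. A list holds only peaks that passed in both libraries, so absence means below that limit and gives no Nrf2-null value at these sites. The smallest −log10 p listed for Nrf2-null cells was 7.45, and 148 of the 151 Nrf2-null peaks had lower values than the Srxn1 site in Keap1-null cells. The list is cut by IDR and depth is unknown. These values therefore do not tell whether a site of that strength would have been listed in Nrf2-null cells. Of the Prdx1 sites, the upstream one, at 8.28, was near the smallest listed value, with 6 of the 151 Nrf2-null peaks weaker. The start site, at 11.4, had 39 of them weaker.

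Peaks present in both lists gave a measure of how the genotypes compared where both were listed. Over the 106 shared Keap1-null peaks the median smaller −log10 p was 18.2 in Keap1-null and 25.3 in the overlapping Nrf2-null peak, and 83 of them were higher in Nrf2-null. Of these peaks, 38 lie in a cluster at the start of chromosome 9; without it, 48 of 68 were higher in Nrf2-null, with medians of 16.4 and 21.4. Shared peaks were thus not weaker in the Nrf2-null list, though these values rise with depth and do not compare occupancy. Shared peaks are also only those that passed in both lists. Keap1-null peaks too weak to be listed in Nrf2-null cells are left out by definition, so the comparison does not extend to them.

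**Figure D4:**
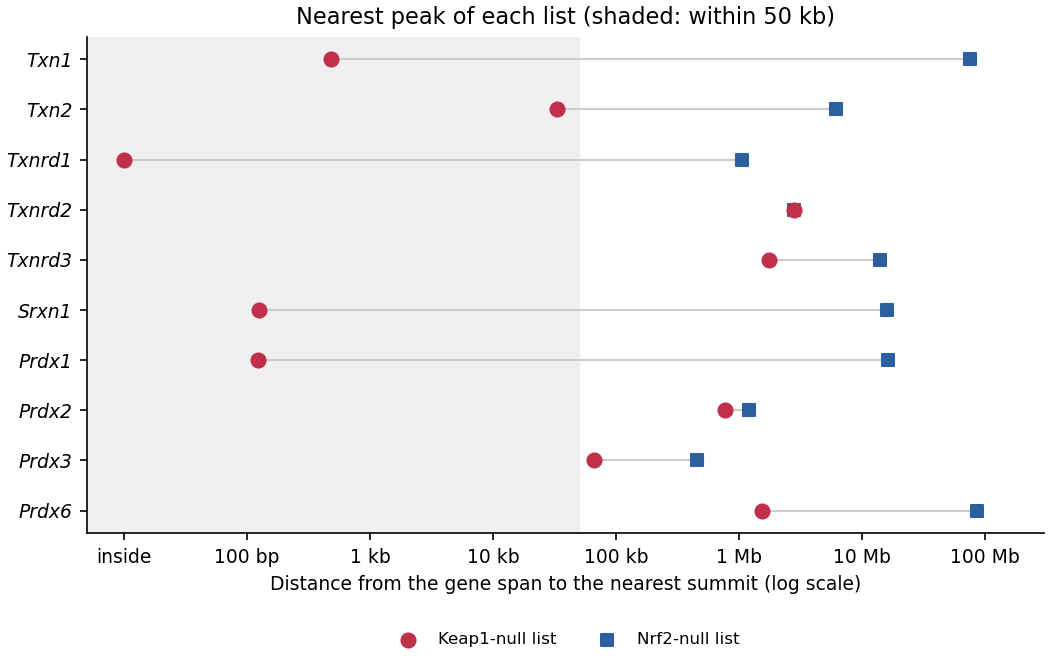
Distance from each gene span to the nearest summit of the Keap1-null list (red circles) and of the Nrf2-null list (blue squares), on a log scale with the 50 kb window shaded and summits inside the gene drawn at the left. The circles of 5 genes lie in the shaded part and no square does; for Txnrd2 both symbols coincide at 2.78 Mb.

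Other genes of the system had sites at a share near that of all genes. Of 33 related genes (other peroxiredoxins, thioredoxin-like proteins, glutaredoxins, methionine sulfoxide reductases, sestrins, ribonucleotide reductase subunits, Txnip, Map3k5 and Gsr), 2 had a Keap1-null-only peak in their window (6.06%, against the 3.31% of all protein-coding genes given above) and 0 an Nrf2-null peak. Gsr, which encodes glutathione reductase, had a peak inside the gene, 165 bp from its lower-coordinate end (chr8:33653332-33653527), with 8.99 in the first library and 7.77 in the second and an IDR of 0.0402. Glrx5, a mitochondrial glutaredoxin gene, had its summit 49.0 kb away (chr12:104983334-104983704), at 20.4 and 8.63, and that summit lay inside Syne3. Txnip, which encodes the inhibitor of thioredoxin, and the peroxiredoxin genes Prdx4 and Prdx5 had none.

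All 7 sites also lay in the window of at least 1 other protein-coding gene. The closest neighbour was Eid3, 7.5 kb from the internal Txnrd1 summit. The Txn1 site is also within 50 kb of 2 other protein-coding genes, among them Txndc8, a thioredoxin-domain gene 27.1 kb from the summit that is not in the lists above. The Prdx1 sites lie in the windows of 4 others (Akr1a1, Ccdc163, Mmachc and Tesk2) and the Srxn1 site in those of 2 (Scrt2 and Tcf15). For 6 of the 7 sites the protein-coding gene nearest to the summit was the thioredoxin-system gene itself, the exception being the distal Txnrd1 site.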

How the data were processed

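Nrf2 ChIP-seq was made from satellite cells of Keap1-null and Nrf2-null mice, with 2 ChIP and 2 input libraries per genotype. The submitters' processing notes name MACS2 2.2.7.1, SAMtools 1.6, BWA 0.7.17 and Trim Galore 0.6.10, and build mm10; their settings and the role of the input libraries are not stated there. The authors deposited 1 peak list per genotype, which joins its ChIP libraries in the layout of the IDR procedure. The deposited values are a −log10 p per library, the −log10 IDR and an IDR score; the fold column holds a placeholder. The peak values are the authors' and only describe or rank peaks. Columns do not name the bench, and read totals, hence depth, are unknown.

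Peaks were shared when they overlapped by at least 1 bp. Gene spans, starts and promoter sequence came from RefSeq tables of GRCm38.p6; the promoter table held 9 of the 10 genes. Percentages beside counts are over all protein-coding genes or all Keap1-null-only peaks. Genes named by a set rule are the 10 members, genes nearest to their peaks and listed related genes with a peak. For each gene-end peak, the one most like it is named too. Outside that rule, some related genes without a peak and genes sharing a window or summit are named. The genes under other observations were named after their values were seen. The members and lists were chosen with earlier results of these data known. Window, overlap and motif functions were tested on simulated data. Python 3.11.15, pandas 2.3.3 and numpy 2.4.6 were used.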

Additional observations from a re-analysis of the deposited data

How the results depend on the processing

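The 5 genes with a Keap1-null-only peak became 4 with a 10 kb window and 6 with 100 kb, which adds Prdx3, while the share of all protein-coding genes became 1.31% and 5.64%. The genes stayed at 5 at an IDR of at most 0.01, with the nearest gene alone or with any base of the peak counted. The 7 peaks ranged from 5 to 8 over 7 alternatives, and the genes with an Nrf2-null peak stayed at 0 over 3. Within 1000 bp of a gene end lay 3 peaks, or 4 within 5000 bp or at RefSeq starts (the latter chosen after seeing the data). The genes with an antioxidant response element core, 3, became 5 with TGANNNNGC and 1 with TGACTCAGC, which follows from the looser and stricter letters, and 2 with TGANTCAGC, added after seeing the data. The median smaller −log10 p of 43.7 became 52.0 with the mean of the libraries, which cannot be lower by construction. No paired analysis was possible because the lists merge a genotype's libraries and do not name the bench, and for that reason replicates could not be left out in turn either. Unknown depth limits the reading of absent peaks, above all at Prdx1.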

Other observations

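Apart from those of the 10 genes, 18 RefSeq promoter windows held a Keap1-null-only summit, among them that of Gm38560, which shares the Txnrd1 summit, and 11 of the 18 held the antioxidant response element core. Over all 14 windows with a core match, the median distance from the centre of the match to the summit was 9 bp, and 12 were within 50 bp. The 14 windows hold 11 distinct summits, so some summits are counted more than once here. Srxn1, at 158 bp, was the farthest. The windows with a match included those of Adrm1, a ubiquitin receptor of the proteasome, at 22.7 and 24.7 in the first and second library with the match 17 bp from the summit, of the splicing factor gene Srsf2, at 21.8 and 22.0 with the match 40 bp away, and of Oser1, at 10.9 and 6.8 with the match 6 bp away. The windows of Psmb3, a proteasome subunit gene, at 37.9 and 20.5, of the clathrin heavy chain gene Cltc, at 34.7 and 12.5, and of Aox1, at 30.4 and 11.4, held a summit and no core match. These genes were named after their values were seen, and no test was made.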
